A study of Schizosaccharomyces pombe with 3 samples.

Results

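The sterol synthesis genes and Sre1 pathway described here are 10 genes of the fission yeast Schizosaccharomyces pombe. They comprise sre1 and scp1, which encode the sterol-sensing regulators, and hmg1, erg9, erg1, erg11, erg25, erg31, erg32 and erg5, which encode enzymes on the route to ergosterol. Members were found by symbol, older symbol or systematic name in the feature names of the array, by a rule that uses no measured value, although earlier results of these data were known when the genes were chosen. Each gene has 2 features: a product of its open reading frame (ORF), and an intergenic product that carries the gene's name and was read as its upstream region. These are 20 of the 9955 genomic features on the array. A value on all 3 arrays was obtained for 16 of the 20, which are 7 upstream and 9 ORF features, and for 5449 of the 9955.

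The study mapped where the corepressor Tup12 sits on chromatin, using cells whose Tup12 carries a GFP tag. Cultures were in mid-log growth in rich YES medium, crosslinked chromatin was precipitated with an antibody against GFP, and the amplified precipitate (Cy5) was hybridised together with amplified input DNA of the same tagged strain (Cy3). Per the labels' protocols, both kinds of DNA came from 3 separate experiments, and 1 array of each was analysed. Where these were not separate cultures, p-values measure only the spread between arrays. No array of an untagged strain, of another antibody or with exchanged dyes was analysed here, and the labels do not name the promoter that drives the tagged gene, so each ratio sets precipitate against input of 1 strain in 1 medium. The number of arrays limits the precision.

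Ergosterol is the main sterol of fungal membranes. It is built from acetyl-CoA by way of mevalonate and squalene, and several of the later steps consume molecular oxygen. In fission yeast, Sre1, a membrane-bound transcription factor related to mammalian SREBP, is held with its partner Scp1, the homologue of SCAP, and is cleaved when sterol synthesis or oxygen falls. The released part enters the nucleus and activates genes of the oxygen-requiring steps. Tup12 belongs to the Tup proteins of fission yeast, corepressors that do not bind DNA themselves and are brought to promoters by DNA-binding proteins, together with Ssn6.

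The regions ahead of 4 of the genes are shown because the upstream results turn on them. By the ratio of precipitate to input, hmg1 and erg32 were in the binding list redrawn here, and erg11 was not enriched. erg31 is the paralogue of erg32. Each is the stretch before the annotated start of the gene in the RefSeq assembly ASM294v3, of 300 bases or cut short where it reaches a neighbouring coding transcript. All 4 windows overlap annotated noncoding transcripts. The start of the gene can lie well ahead of its coding sequence, which for hmg1 begins at 1561986. Sequences read 5′ to 3′ on the strand of the gene, and capitals mark matches to the motifs searched. The labels do not state where the printed products begin and end, so these windows stand for the gene's upstream side and not for the printed product. The windows are III:1561142-1561214 (plus strand) for hmg1, I:577154-577453 (minus) for erg11, I:933969-934268 (minus) for erg31 and II:1325465-1325764 (minus) for erg32.
hmg1: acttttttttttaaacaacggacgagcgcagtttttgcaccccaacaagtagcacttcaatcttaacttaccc
erg11: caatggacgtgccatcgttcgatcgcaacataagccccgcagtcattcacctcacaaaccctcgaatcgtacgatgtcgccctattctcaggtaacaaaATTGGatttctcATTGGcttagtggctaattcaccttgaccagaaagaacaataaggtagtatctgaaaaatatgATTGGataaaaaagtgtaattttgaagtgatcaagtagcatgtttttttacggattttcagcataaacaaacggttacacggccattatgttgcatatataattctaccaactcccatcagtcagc
erg31: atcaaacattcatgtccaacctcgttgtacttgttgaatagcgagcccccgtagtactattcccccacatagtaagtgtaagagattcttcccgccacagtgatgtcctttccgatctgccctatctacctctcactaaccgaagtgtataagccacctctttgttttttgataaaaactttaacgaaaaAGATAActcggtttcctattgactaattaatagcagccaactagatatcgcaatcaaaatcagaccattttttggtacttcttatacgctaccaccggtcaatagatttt
erg32: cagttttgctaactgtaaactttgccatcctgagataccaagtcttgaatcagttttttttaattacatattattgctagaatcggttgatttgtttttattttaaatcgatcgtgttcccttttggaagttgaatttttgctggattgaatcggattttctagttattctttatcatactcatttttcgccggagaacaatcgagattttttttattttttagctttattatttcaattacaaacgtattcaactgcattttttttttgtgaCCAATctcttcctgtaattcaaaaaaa

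The motifs were searched on both strands of the full window of each of 5123 coding genes, and no marked match overlaps another. CCAAT, the core of the CCAAT box, was found ahead of 4 of the 9 members searched (scp1, erg1, erg11 and erg32) and in 41.1% of all windows. The erg11 window holds 3 copies. AGATAA, a core read by GATA factors, was found ahead of 1 of them, erg31, and in 25.7% of all windows. CACGTG (the E-box, 1.54% of windows), TGACGT (the core of the cAMP response element, 6.01%) and TCACNCCAC (a form of the mammalian sterol regulatory element, 0.137%) had no match ahead of any of the 9. Windows cut short offer fewer places for a match, and the shares do not allow for length. These counts describe letters and say nothing of bound proteins.

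Values below are log2 of precipitate over input intensity, centred on the array median, so that 0 is the middle feature of an array and 1 is a ratio 2-fold higher. Each feature is printed in duplicate spots, which tracked each other closely (r = 0.93 to 0.94), and arrays correlated at r = 0.73 to 0.84 over the 5449 features. A ratio was available for 63.3% to 67.8% of genomic spots. Negative control spots were accepted in 42.1% to 49.6% of cases in the precipitate channel, against 1.54% to 1.85% in the input channel. The median upstream feature had a value of 0.50 and the median ORF feature -0.49, and the median SD over arrays was 0.38 and 0.42. The limma p-values below rest largely on a spread pooled over all features, so they do not follow the SD printed beside them. The hmg1 ORF (SD 0.07) had an unadjusted 95% interval of -1.15 to -0.026. For the erg32 ORF (SD 0.99) it was -1.38 to -0.091. A call with a large SD is therefore not borne by its own 3 arrays alone.

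Tup12 signal was higher than the array median ahead of 4 of the 7 members measured upstream on every array: erg5, hmg1, erg32 and erg31 (limma, adjusted p under 0.05). By the same test 42.2% of all 2238 upstream features were enriched, so enrichment was common at upstream regions in general. No member was depleted upstream, with or without adjustment of p, against 7.77% of upstream features. The median of the 7 was 0.78, against 0.50 for all upstream features. The study drew its binding lists at the 85th percentile of the median rank. When that rule was applied here to the ratios, 3 of the 7 (erg5, hmg1 and erg32) reached it, against 25.2% of upstream features. With the zero point moved to the median upstream feature, an alternative chosen after the data were seen, the same 3 members were called, against 23.4% of upstream features.

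**Figure D1:**
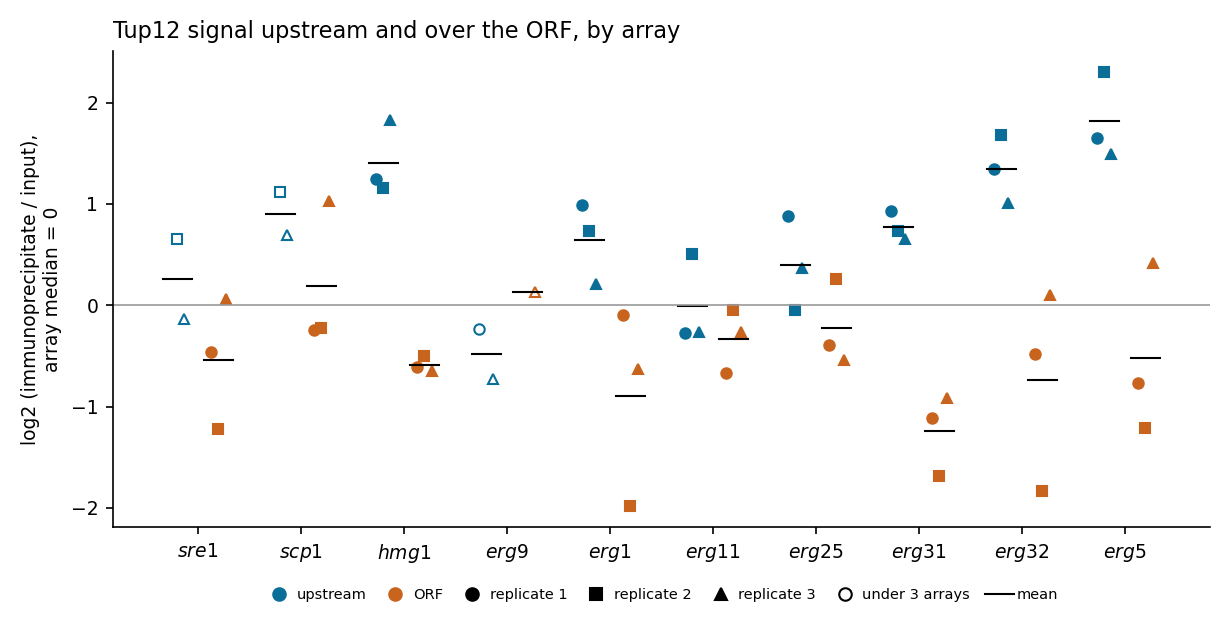
Log2 of precipitate over input intensity (vertical axis, array median at 0) for each of the 10 genes (horizontal axis), with the upstream feature in blue left of the ORF in orange, a symbol for each replicate array and a bar at the mean. Upstream values of erg5, erg32, hmg1 and erg31 lie above 0 on all 3 arrays, whereas those of erg11 lie on both sides of 0.

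The regulators of the pathway were measured on 2 of the 3 arrays upstream. sre1 (SPBC19C2.09), which encodes the membrane-bound transcription factor, had upstream values of 0.65 on replicate 2 and -0.13 on replicate 3. On replicate 1 both of its upstream spots were accepted in the precipitate channel but rejected in the input channel. Both were brighter than every accepted precipitate spot of this feature on replicates 2 and 3, so the upstream values may understate the signal. The 2 arrays with a value lie on opposite sides of the array median. Without the filter on flags the upstream mean of sre1 was 0.42 (limma adjusted p = 0.629). Its ORF had -0.46, -1.22 and 0.06 on replicates 1, 2 and 3 (mean -0.54 ± 0.65, SD, n = 3), which did not pass the test (limma adjusted p = 0.125).

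scp1 (SPBC3B9.15c), whose product escorts Sre1 and senses sterols, had upstream values of 1.12 on replicate 2 and 0.69 on replicate 3, and again no accepted input spot on replicate 1. Both arrays were above the array median, and with features of at least 2 arrays admitted to the fit it was the fifth member called (0.91, limma adjusted p = 0.042). The call did not hold in the fit of replicates 2 and 3 alone, where the same value had an adjusted p of 0.110, or without the filter on flags (0.45, adjusted p = 0.271). The scp1 ORF had -0.25, -0.23 and 1.03 (mean 0.19 ± 0.73, SD, n = 3, limma adjusted p = 0.623), with replicate 3 alone above 0.

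Before squalene, hmg1 (SPCC162.09c) encodes HMG-CoA reductase, the rate-limiting enzyme of the mevalonate route, and is transcribed from chromosome III (coding sequence 1561986-1565147, plus strand). Its upstream values were 1.24, 1.15 and 1.82 (mean 1.41 ± 0.36, SD, n = 3), a ratio 2.65-fold that of the array median (limma adjusted p = 1.8e-04). All 3 arrays were high, and the mean lay above 81.3% of upstream features. Only 4 of its 6 upstream spots gave a ratio, so the values of replicates 1 and 3 rest on 1 spot each. Without the filter on flags the mean was 0.50 (limma adjusted p = 0.288). Over its ORF the values were -0.61, -0.50 and -0.65 (mean -0.59 ± 0.07, SD, n = 3), close together and just outside the test (limma adjusted p = 0.077).

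erg9 (SPBC646.05c), the squalene synthase gene, was the least well measured. Its upstream values were -0.23 on replicate 1 and -0.73 on replicate 3, both below the array median, and its ORF gave 0.13 on replicate 3 only. On replicate 2 both spots of each feature were accepted in the precipitate channel but rejected in the input channel. These precipitate spots were brighter than the accepted ones of the same feature on the other arrays, so the upstream values may understate the signal. With the filter on flags, no test over all 3 arrays was possible for either feature. Without it the upstream mean was 0.015 (limma adjusted p = 0.990) and the ORF mean 0.56 (adjusted p = 0.506).

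After squalene, the first oxygen-requiring step is that of squalene epoxidase, encoded by erg1 (SPBC713.12). Upstream it had 0.99, 0.73 and 0.21 (mean 0.64 ± 0.40, SD, n = 3), all above the array median, and missed the threshold (limma adjusted p = 0.059). Its ORF had -0.10, -1.98 and -0.63 (mean -0.90 ± 0.97, SD, n = 3) and was called depleted (limma adjusted p = 0.020). Replicate 2 decided that call: without it the mean was -0.36 (adjusted p = 0.275).

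erg11 (SPAC13A11.02c) encodes lanosterol demethylase, the cytochrome P450 that azole antifungals inhibit, and stands on the array under the older symbol cyp51. Its upstream values were -0.27, 0.51 and -0.26 (mean -0.01 ± 0.45, SD, n = 3, limma adjusted p = 0.981), with 2 arrays below and 1 above the array median. The mean exceeded that of 28.5% of upstream features, the lowest place among the 7. Its ORF had -0.67, -0.05 and -0.27 (mean -0.33 ± 0.32, SD, n = 3, limma adjusted p = 0.336).

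erg25 (SPAC630.08c), which encodes a methylsterol oxidase, had upstream values of 0.88, -0.05 and 0.37 (mean 0.40 ± 0.47, SD, n = 3, limma adjusted p = 0.247). The arrays spread across the array median, and the mean exceeded 45.4% of upstream features. The erg25 ORF had -0.39, 0.26 and -0.54 (mean -0.22 ± 0.42, SD, n = 3, limma adjusted p = 0.531).

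Late in the route, erg31 (SPAC1687.16c) and erg32 (SPBC27B12.03c) encode paralogous sterol desaturases. Ahead of erg31 the values were 0.93, 0.74 and 0.66 (mean 0.78 ± 0.14, SD, n = 3), 1.71-fold the array median (limma adjusted p = 0.021). The 3 arrays were close together, but the call was lost without replicate 1 (0.70, adjusted p = 0.232) and without replicate 3 (0.84, adjusted p = 0.063). Its ORF had -1.11, -1.69 and -0.92 (mean -1.24 ± 0.40, SD, n = 3), below the array median on every array (limma adjusted p = 7.0e-04) and the lowest ORF mean of the members.

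Ahead of erg32 the values were 1.34, 1.68 and 1.01 (mean 1.34 ± 0.33, SD, n = 3), 2.54-fold the array median (limma adjusted p = 2.8e-04), with no array under 1. Over the ORF they were -0.48, -1.83 and 0.11 (mean -0.74 ± 0.99, SD, n = 3, limma adjusted p = 0.055), with replicate 2 far below the other two. Set directly against each other, the upstream value of erg31 minus that of erg32 was -0.41, -0.94 and -0.35 on the 3 arrays (mean -0.57 ± 0.32, SD, 95% interval -1.37 to 0.23). By an exact two-sided sign-flip test p was 0.25, and 3 arrays allow no smaller value. The same difference between the ORFs was -0.50 ± 0.60 (exact p = 0.5), so neither contrast was resolved at this number of arrays.

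erg5 (SPAC19A8.04) encodes the sterol side-chain desaturase, another cytochrome P450. It had the highest upstream signal of the members, with 1.65, 2.30 and 1.50 (mean 1.81 ± 0.43, SD, n = 3). This is 3.52-fold the array median (limma adjusted p = 9.4e-06, 95% interval of the log2 mean 1.24 to 2.39) and above 89.5% of upstream features. Its 6 upstream spots had precipitate intensities of 188211 to 284436, against 41438 to 79250 in the input channel. The erg5 ORF had -0.77, -1.22 and 0.42 (mean -0.52 ± 0.84, SD, n = 3, limma adjusted p = 0.157), with the arrays on both sides of 0.

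**Figure D2:**
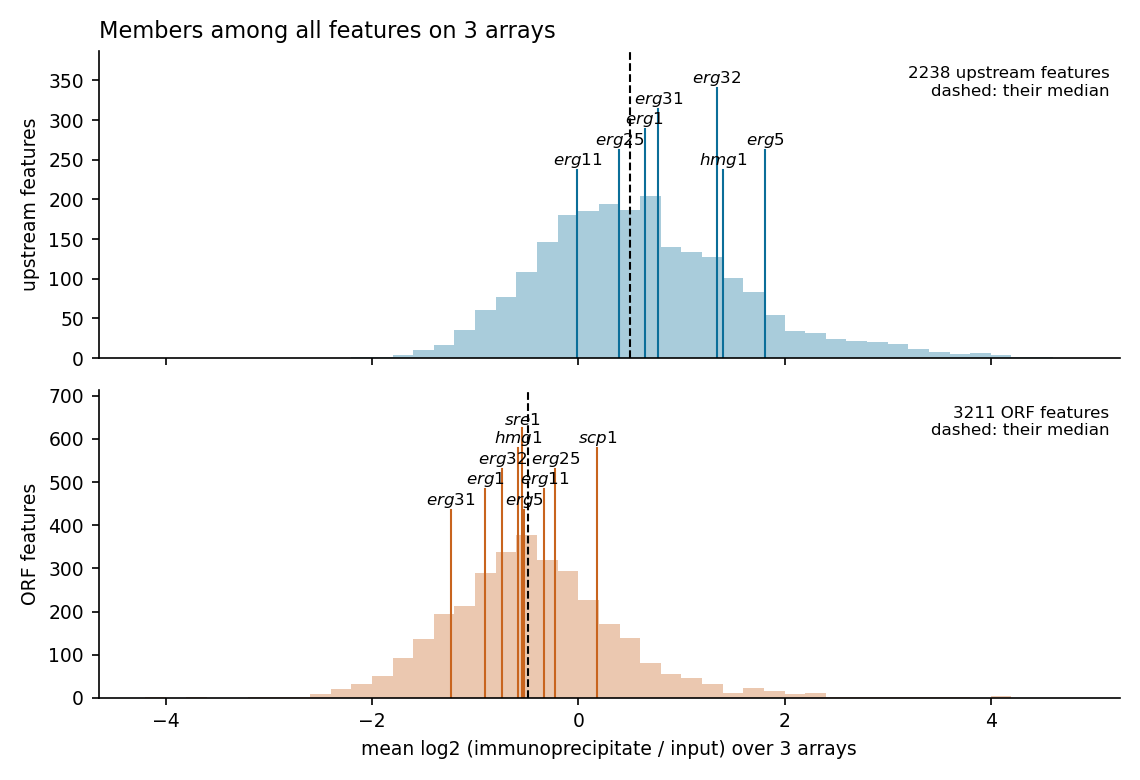
Histograms of the mean log2 of precipitate over input (horizontal axis) for the 2238 upstream features (top) and the 3211 ORF features (bottom) measured on all 3 arrays, with a vertical line for each member and a dashed line at the median of the kind. erg5 stands highest among the 7 upstream members at 1.81 and erg11 lowest at -0.01, while the ORFs of the members run from -1.24 for erg31 to 0.19 for scp1.

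Over the 9 ORFs, none was enriched, with or without adjustment of p, against 8.19% of all 3211 ORF features. The erg1 and erg31 ORFs were depleted, 2 of 9, against 38.7% of ORF features. No ORF of a member was in the binding list, against 3.77% of ORF features. The median of the 9 was -0.54, against -0.49 for all ORFs. Replicate 2 gave the lowest of the 3 values for 5 of the 9 ORFs (sre1, erg1, erg31, erg32 and erg5), and for 52.8% of all ORF features. Without replicate 3, the ORFs of erg32 (-1.16, adjusted p = 0.0076) and erg5 (-0.99, adjusted p = 0.025) joined the depleted ones.

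Within genes, the upstream feature exceeded the ORF in 5 of the 7 members with both features on every array: hmg1, erg1, erg31, erg32 and erg5 (limma on the paired difference, adjusted p under 0.05). Of all 1308 genes with both, 47.5% passed that test in this direction and 3.44% in the other, in which no member passed. Of these 5, the genes with the smallest SD were hmg1, with 1.85, 1.66 and 2.47 (mean 1.99 ± 0.43, SD, n = 3, adjusted p = 0.0028), and erg31, with 2.04, 2.42 and 1.58 (mean 2.01 ± 0.42, SD, n = 3, adjusted p = 0.0027).

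erg5 had the largest mean difference, 2.34 ± 1.22 (SD, n = 3, limma adjusted p = 0.0058), and 90.4% of genes had a smaller one. That of erg32 was 2.08 ± 1.32 (adjusted p = 0.011) and that of erg1 was 1.54 ± 1.01 (adjusted p = 0.020), both widest on replicate 2. Without replicate 2 they were 1.37 for erg32 and 0.96 for erg1, and without replicate 1 both missed the threshold (erg32 at 2.21, adjusted p = 0.055, and erg1 at 1.77, adjusted p = 0.071). erg11 (0.32 ± 0.28, adjusted p = 0.424) and erg25 (0.62 ± 0.83, adjusted p = 0.219) did not pass. For erg25 replicate 2 alone ran the other way, at -0.31, and without it the difference was 1.09 (adjusted p = 0.037).

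The members differed in how bright their upstream spots were in each channel, given here as log2 over the median spot of the channel. erg1 had 2.32 in the precipitate and 1.55 in the input channel, erg11 had 1.81 and 1.70, and erg25 had 1.55 and 1.03. Input spots of these 3 were brighter than those of 92.6% to 98.4% of upstream features. Their precipitate spots were brighter than those of 87.4% to 94.9%, so features with no called ratio stood high in both channels.

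At the other end, hmg1 had 0.39 in the precipitate and -1.14 in the input channel, and its input was brighter than only 19.4% of upstream features. The hmg1 precipitate was brighter than 60.3% of them. erg5 had 1.23 and -0.71, erg32 had 1.35 and -0.12, and erg31 had 1.19 and 0.29. Their precipitate was brighter than 82.5%, 84.8% and 81.9% of upstream features. The called members thus stood below erg1, erg11 and erg25 in the precipitate channel. Spot brightness also depends on the printed product, so these are places among spots, not amounts of DNA.

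To set features beside others of like input signal, an alternative was chosen after the data were seen. It subtracted the median ratio of each spot's bin of input signal (20 bins on each array). Bins held upstream and ORF spots together. Median input was -0.57 to -0.47 for upstream spots and 0.36 to 0.43 for ORF spots. Bright upstream features such as erg1, erg11 and erg25 were thus set partly beside ORFs, whose median ratio was lower over the whole array. What part this had in their values was not tested. After that subtraction all 7 upstream features were enriched, against 33.9% of upstream features, and 5 of 7 were in the binding list, against 23.2%. Those shares cover upstream features of every input brightness. In this setting erg1 had 1.61, erg5 1.44, erg32 1.41, erg25 1.18, erg31 1.15, erg11 1.01 and hmg1 0.71. The values of erg1, erg11, erg25, erg31 and erg32 were higher than in the plain ratio and those of hmg1 and erg5 were lower, and erg1 took the place of erg5 at the top. No ORF remained depleted, and the scp1 ORF was called enriched (0.99, limma adjusted p = 0.0046), against 13.9% of ORF features.

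**Figure D3:**
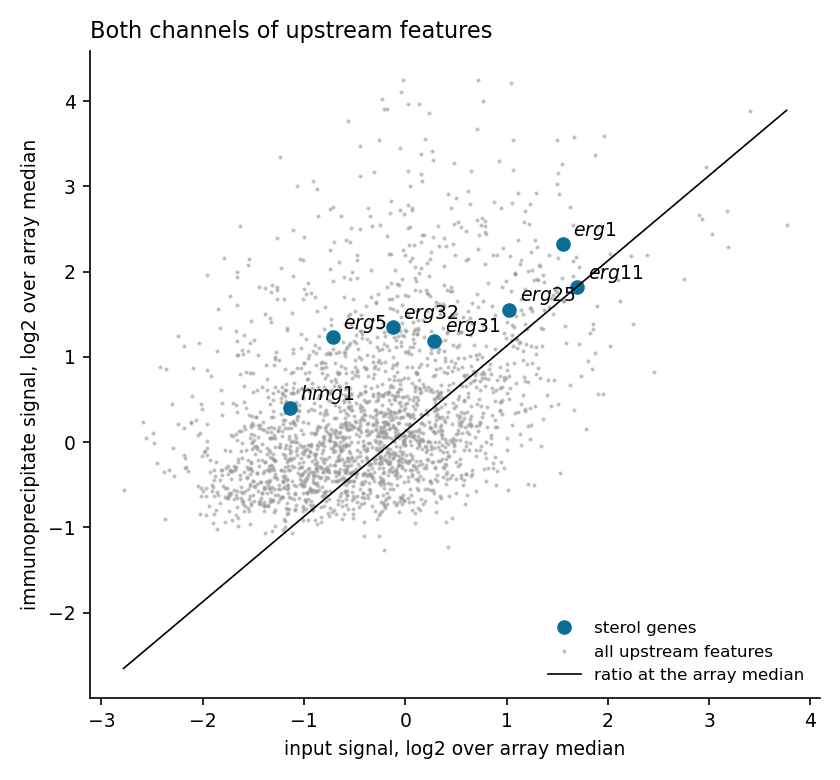
Precipitate signal (vertical axis) against input signal (horizontal axis), both as log2 over the array median and averaged over 3 arrays, for all upstream features (grey) and the 7 sterol genes (blue), with a line where the ratio equals the array median. erg11 lies on the line at the bright end of both channels, whereas hmg1, erg5 and erg32 lie above it at low or middle input signal.

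The wider pathway was described with lists of 46 genes, 10 of them the members, that cover the mevalonate route, the steps from squalene to ergosterol, Sre1 and its oxygen control, electron donors and a haem helper, sterol esters and other oxygen-using enzymes. Upstream, 20 genes were measured on all arrays, 10 were enriched, against 42.2% of all upstream features, and none was depleted, against 7.77%. Their median was 0.71. Without the members the count was 6 of 13, with a median of 0.48, which is near the 0.50 of all upstream features. Over ORFs, 33 were measured, of which 2 were enriched and 11 depleted, against 8.19% and 38.7% of all ORF features.

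In the mevalonate route 2 of 9 genes were measured upstream on all arrays, hmg1 and erg10, the acetyl-CoA acetyltransferase gene at the entry of the route. Both were enriched, against 42.2% of all upstream features. erg10 had 2.04, 1.97 and 2.10 (mean 2.04 ± 0.07, SD, n = 3, limma adjusted p = 1.2e-06), a higher upstream mean than any member. Of the 9 genes from squalene to ergosterol measured upstream, 4 were enriched, near the same 42.2%. They were erg31, erg32, erg5 and erg26, a sterol dehydrogenase gene, with erg26 at 1.34 ± 0.22 (adjusted p = 2.6e-04). The same list had 5 of 11 ORFs depleted, against 38.7% of all ORF features, with erg27, a sterol ketoreductase gene, lowest at -1.96 ± 0.54 (adjusted p = 4.1e-06) and erg26 at -1.19 ± 0.67 (adjusted p = 0.0015).

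Among genes of Sre1 activation and oxygen control, 2 of 6 were enriched upstream, against 42.2% of all upstream features. One was ofd1, whose product promotes loss of the Sre1 fragment when oxygen is present. It had 1.38, 1.71 and 1.40 upstream (mean 1.50 ± 0.19, SD, n = 3, limma adjusted p = 7.5e-05) and -1.51, -1.49 and -1.42 over its ORF (mean -1.47 ± 0.05, SD, n = 3, adjusted p = 8.6e-05), with no array near 0 on either side. The other, named after its values were seen, was ins1, the Insig homologue, at 0.90 ± 0.97, with a mean of 1.42 without replicate 1 and 0.46 without replicate 3. Over the ORFs of this list, 4 of 10 were depleted, near the 38.7% of all ORF features, and 1 was enriched, against 8.19%. Among the depleted ones were dsc2 (-1.44 ± 0.30, adjusted p = 1.3e-04) and dsc3 (-1.33 ± 0.64, adjusted p = 5.2e-04). These encode subunits of the ligase complex that Sre1 cleavage needs.

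dap1, which encodes a haem-binding partner of the sterol cytochromes P450, stands on the array under the older systematic name SPAC26H5.15, which the reference annotation lists as its synonym. It was the only gene of the lists with both features called enriched, at 1.58 ± 0.47 upstream (limma adjusted p = 5.7e-05) and 1.33 ± 0.33 over its ORF (adjusted p = 3.2e-04). sur2, which encodes a sphingolipid hydroxylase, had 1.57 ± 0.24 upstream (adjusted p = 4.5e-05).

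**Figure D4:**
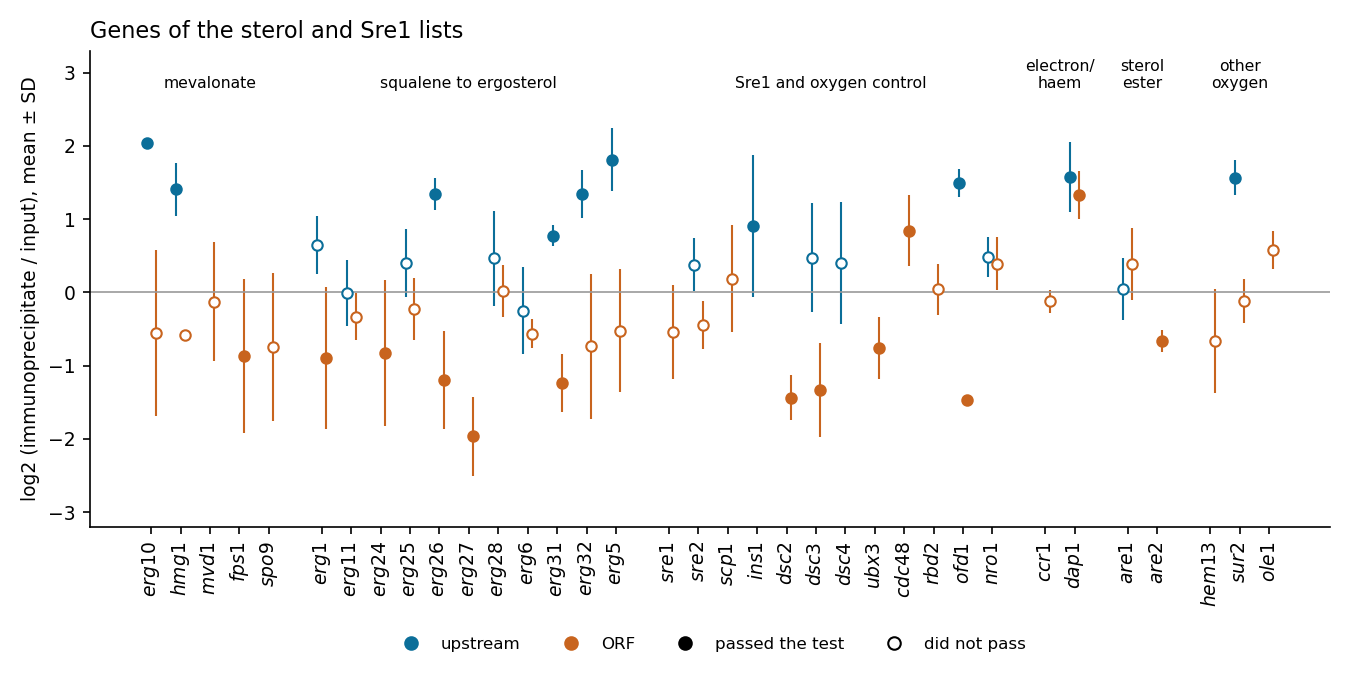
Mean log2 of precipitate over input with its SD over 3 arrays (vertical axis) for every listed gene with a feature on all arrays (horizontal axis, grouped by list), upstream in blue and ORF in orange, filled where the feature passed the test. Enriched upstream features of erg10, erg5, dap1 and ofd1 stand at 1.50 to 2.04, and depleted ORFs reach -1.96 for erg27.

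A region between genes transcribed away from each other lies upstream of both, so neighbours were examined by orientation. Over the array, the upstream features of neighbouring genes correlated at r = 0.64 in 293 divergent pairs, 0.26 in 397 tandem pairs and 0.23 in 229 convergent pairs, a description across features that share arrays. Of the 10 members, hmg1, erg1, erg11 and erg25 face a divergent neighbour, and the other 6 follow a gene on the same strand. Distances between coding sequences are those of ASM294v3.

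The gap of 2745 bp between hmg1 and ppk33, a protein kinase gene, is longer than the 882 bp median gap ahead of a gene. The upstream feature of ppk33 had 2.67, 3.28 and 2.52 (mean 2.82 ± 0.40, SD, n = 3, limma adjusted p = 8.4e-09), higher on every array than the 1.41 ± 0.36 of hmg1. Its ORF was enriched too, at 1.22 ± 0.67 (adjusted p = 0.0012).

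erg11 shares a gap of 1898 bp with mcp7, a gene of meiotic recombination. The upstream feature of mcp7 had 1.41, 2.14 and 1.91 (mean 1.82 ± 0.37, SD, n = 3, limma adjusted p = 8.3e-06), whereas that of erg11 averaged -0.01 ± 0.45. The values of the 2 features do not overlap. Where in the gap each product lies is not stated, so they cannot be placed at its ends. The erg11 feature was called in 2 of 13 other settings. These were equal input signal (1.01, limma adjusted p = 0.0044) and the series matrix, which holds 1 channel (2.86, adjusted p = 0.0077).

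Between erg25 and mug177 the gap is 594 bp. The mug177 upstream feature had 1.04 ± 0.30 (SD, n = 3, limma adjusted p = 0.0030) and its ORF 1.66 ± 0.42 (adjusted p = 2.9e-05), against 0.40 ± 0.47 upstream of erg25. The divergent neighbour of erg1, SPBC713.14c, lies 2335 bp away and had no feature matched here.

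Of the tandem neighbours, the splicing factor gene prp38, ahead of sre1, was enriched at its own upstream side (1.60 ± 0.54, SD, n = 3, limma adjusted p = 5.5e-05), as was SPAC1687.17c, ahead of erg31 (1.41 ± 0.93, adjusted p = 5.3e-04, with a mean of 0.87 without replicate 3). The gap of 1294 bp ahead of erg31 also holds an alanine tRNA gene. csc2, which ends 674 bp ahead of erg32, had 1.58, 6.01 and 2.11 over its ORF (mean 3.23 ± 2.42, SD, n = 3, limma adjusted p = 4.1e-06), high on every array, with replicate 2 far above the others and a mean of 1.84 without it. The ORF of ymr1, 855 bp ahead of erg5, averaged 0.04 ± 0.60 (adjusted p = 0.921), and its upstream feature gave no value. agn2, 338 bp ahead of erg9, was depleted over its ORF, with -0.84, -2.95 and -1.49 (mean -1.76 ± 1.08, SD, n = 3, limma adjusted p = 7.1e-05), and averaged -1.17 without replicate 2. nup120, 581 bp ahead of scp1, had -0.57 ± 0.11 over its ORF (adjusted p = 0.084), and neither gene was measured upstream on all arrays.

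Of 13 other processing settings, the upstream features of erg5 and erg32 were called in 12 each, hmg1 in 11, erg31 in 9, erg1 in 5, and erg11 and erg25 in 2 each.

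**Figure D5:**
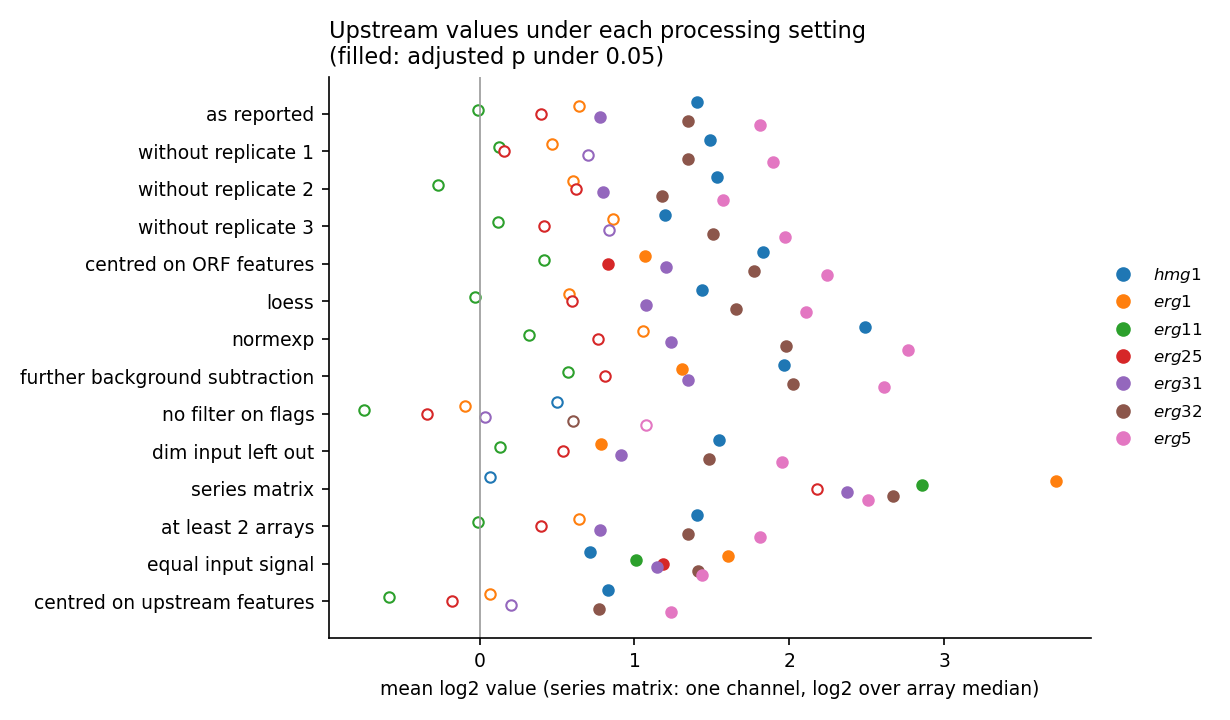
Mean upstream value of each of the 7 members (horizontal axis, log2; for the series matrix, log2 of the precipitate channel over its median) under each processing setting (vertical axis), filled where the adjusted p was under 0.05. erg5 stays above 1 in every setting, and hmg1 and erg32 are called in all but the one without a filter on flags and, for hmg1, the series matrix.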

How the data were processed

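Chromatin from Tup12-GFP cells was measured on 3 two-colour arrays of ORF and intergenic products. The authors deposited integrated spot intensity values for each channel (input Cy3, precipitate Cy5), read with TIGR Spotfinder per the labels' protocols and already reduced by local background. No label or header names the genome build behind the array. The authors' series matrix holds deposited log10 values, normalized in GeneSpring per the labels' protocols; they followed the precipitate channel (r = 0.84 to 0.91 with its log10 after a further background subtraction), with 25.0% to 38.6% of values at a floor and column medians of 0.02, 0.05 and 0.03. Their direction is that of a single channel rather than a ratio, what else was done to them is unknown, and they were used only as an alternative.

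From 22176 spots per array, 19918 named spots of 9955 genomic features were kept. Controls, 233 features whose names mark the product as missing and other names that give no gene were left out. Log2 of precipitate over input was taken where neither channel carried flag X, shifted so that the median of each array was 0 (0.52, -0.29 and 0.24 were subtracted), and averaged over duplicate spots. Those measured on every array were tested against 0 with limma 3.58.1 (lmFit, eBayes) in R 4.3.3, with Benjamini-Hochberg adjustment over all 5449 and a threshold of 0.05. Upstream minus ORF was tested likewise over 1308 genes. The limma fit was also run on simulated normal noise around 0 with known shifts in some features. That noise lacks the offset between upstream and ORF features, so the run cannot vouch for calls against the array median. The binding list took features whose median percentile rank reached the 85th percentile, as the labels' protocols describe. Paralogue differences used an exact sign-flip test.

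Members and lists were chosen with earlier results of these data known. All members are named, list genes where a called value reached 1 in size, and each member's upstream neighbour; other names are marked. Names were matched to the RefSeq annotation of ASM294v3, with dap1 through an older systematic name, except cyp51, which was taken as erg11 from general knowledge of the older symbol. Of 46 list genes 45 were matched; cyb5 was not, and the upstream product of ole1 is marked missing. The upstream sequence of erg5 is not reported here. Replicates were numbered in accession order. Python 3.11.15, numpy 2.4.6, pandas 2.3.3 and scipy 1.17.1 were used. Alternatives are in the closing section.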

Additional observations from a re-analysis of the deposited data

How the results depend on the processing

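The count of enriched upstream features, 4 of 7 as reported, was 3 of 9, 4 of 8 and 3 of 7 without replicate 1, 2 and 3. It was 6 of 7 with the zero point at the median ORF and 7 of 7 at equal input signal. Without the filter on flags (rejected spots kept at a floor intensity) it was 0 of 10, and in the other settings 3 to 5. Binding list members numbered 0 of 10 without the filter, 6 of 9 in the series matrix and 5 of 7 at equal input signal, against 3 of 7 as reported. Enriched ORFs numbered 1 in the series matrix and 1 at equal input signal, against 0 as reported; with limma at an unadjusted p under 0.05 the count was also 0. Depleted ORFs, 2 as reported, were 1 with the zero point at the median ORF, 1 under loess, 1 under normexp, 0 after a further background subtraction, 6 without the filter, 0 in the series matrix, 0 at equal input signal and 8 with the zero point at the median upstream feature, and 1 to 4 with 1 array left out. Genes with upstream above ORF, 5 as reported, were 2 without the filter, 0 in the series matrix, 3 at equal input signal and 3 to 6 with 1 array left out. List genes enriched upstream, 10 of 20 as reported, were 17 of 20 with the zero point at the median ORF, 2 of 44 without the filter and 8 to 10 with 1 array left out. Most of these counts have no share over all features beside them. A moved zero point or a floor acts on features across the whole array. The counts describe the settings, and whether any is particular to these genes was not tested. The erg31 minus erg32 difference stayed negative, -0.67 to -0.38 with 1 array left out. Among values called in either setting, signs turned for hmg1 upstream minus ORF in the series matrix (-0.91), erg31 ORF in the series matrix (0.98), erg1 ORF in the series matrix (1.28) and at equal input signal (0.081), and erg11 upstream in the series matrix (2.86) and at equal input signal (1.01). The series matrix holds 1 channel and no ratio; the cause of the other changes was not tested. Equal input signal and the zero point at the upstream median were chosen after the data were seen. Of the settings of single members' values, 22 newly passed the threshold and 27 lost it with the same sign, and 28 of 295 had the other sign, 22 of them called in neither setting (the ORFs of sre1, scp1, hmg1, erg11, erg25 and erg32 and the upstream features of erg1, erg11 and erg25). No paired analysis was possible because the arrays form 1 group, with no second group to pair by replicate number; differences within an array are given above. A feature rejected in the input channel gave no ratio.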
